A study of Mus musculus with 45 samples.

Results

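Carriers of citrate and its dicarboxylate relatives, 5 in number, were followed in mouse liver across doses of TCDD, a dioxin that binds and activates the aryl hydrocarbon receptor (AhR). They are 4 members of the Slc13 family of sodium-coupled cotransporters (Slc13a2, Slc13a3, Slc13a4 and Slc13a5) and Slc25a1, the citrate carrier of the inner mitochondrial membrane, and were taken by name from the 39179 Ensembl genes counted. All 5 were among the 17464 genes detected, meaning that more than 4 reads were counted in at least 1 liver. Slc13a2 was chosen because it fell strongly with dose, so its levels against dose are given as a description with no test. The other carriers were also taken with earlier results of these data known.

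RNA-Seq counts came from the livers of 45 female C57BL/6 mice, 5 in each of 9 groups. Mice were gavaged with sesame oil (the vehicle) or with TCDD at 8 doses (30, 10, 3, 1, 0.3, 0.1, 0.03 or 0.01 µg/kg) every 4 days for 28 days, starting on postnatal day 28. The labels also carry the words daily and ovariectomized, neither of which the study's methods state. Reads on genes ran from 11767284 to 56509899 per liver (median 17225047), and levels are given as reads per 1000000 reads of the TMM-scaled library (CPM).

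Slc13 proteins use the sodium gradient to bring Krebs cycle intermediates or sulfate into cells. Slc13a2 and Slc13a3 carry succinate, 2-oxoglutarate and related dicarboxylates, with Slc13a3 having the higher affinity, and both are best known from the kidney tubule. Slc13a5 takes up citrate from blood and is known as a hepatocyte transporter, and Slc13a4 carries sulfate. Slc25a1 moves citrate out of mitochondria in exchange for malate, which supplies the cytosol with the carbon that ATP citrate lyase turns into acetyl-CoA for fatty acid and sterol synthesis.

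Dosing and tissue were checked on genes outside the carriers. Cyp1a2, a direct AhR target, stood at 1105 ± 122 CPM in vehicle mice and 17360 ± 1889 CPM at 30 µg/kg (SD, n = 5 mice each), with no overlap. The 5 hepatocyte markers Alb, Apoa1, Ttr, Hnf4a and Cps1 were detected in all groups. They summed to between 102100 and 152500 CPM at 30 µg/kg, against 108900 to 145100 CPM in vehicle mice. At 30 µg/kg 3 of the 5 were called lower (Apoa1, Ttr and Cps1), when 14.1% of all genes were. The kidney tubule markers Umod, Slc34a1, Slc12a1, Aqp2 and Cdh16 had 20 reads in total over the 45 livers and Slc12a1 had 0. One liver at 0.01 µg/kg, mouse L24, stood apart, with 69.7 CPM of Cyp1a1 and 746.7 CPM of summed Kupffer cell and macrophage markers. Vehicle livers reached at most 16.7 and 178.1 CPM, respectively. In Cyp1a2 L24 did not stand apart, with 1926 CPM against 988.4 (L22) to 1952 CPM (L18) in the other livers of its dose. The value of L22 lay within the vehicle range of 941.9 to 1228 CPM.

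The promoters of 3 carriers are printed because TCDD acts through a receptor that binds DNA at a 5-base core, and because these 3 differ in how their transcripts moved. Each holds 250 bases before and 50 after the transcript start, read 5′ to 3′ on the gene's own strand from RefSeq on GRCm38.p6, and capitals mark the core GCGTG or its reverse complement CACGC. All 5 carriers matched an entry. The windows lie on the minus strand at chr11:78422185-78422484 for Slc13a2, chr2:165473148-165473447 for Slc13a3 and chr16:17928170-17928469 for Slc25a1.
Slc13a2: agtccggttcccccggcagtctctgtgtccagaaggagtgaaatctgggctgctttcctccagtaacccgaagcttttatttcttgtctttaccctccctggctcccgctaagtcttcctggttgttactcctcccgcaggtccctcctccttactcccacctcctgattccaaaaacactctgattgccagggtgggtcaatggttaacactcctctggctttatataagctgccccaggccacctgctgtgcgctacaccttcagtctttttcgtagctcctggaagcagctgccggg
Slc13a3: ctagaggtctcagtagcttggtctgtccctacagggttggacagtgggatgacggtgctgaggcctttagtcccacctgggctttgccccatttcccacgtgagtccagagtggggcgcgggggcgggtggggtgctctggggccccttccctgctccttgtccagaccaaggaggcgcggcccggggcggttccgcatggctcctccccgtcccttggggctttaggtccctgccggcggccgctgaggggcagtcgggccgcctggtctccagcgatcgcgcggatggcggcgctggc
Slc25a1: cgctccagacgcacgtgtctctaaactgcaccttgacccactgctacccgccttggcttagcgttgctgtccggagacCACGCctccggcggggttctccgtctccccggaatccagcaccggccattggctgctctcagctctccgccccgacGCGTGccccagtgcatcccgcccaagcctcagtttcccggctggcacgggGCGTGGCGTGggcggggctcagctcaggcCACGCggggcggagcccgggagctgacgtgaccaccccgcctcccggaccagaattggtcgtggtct

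The windows of Slc13a2 and Slc13a3 held 0 cores, whereas that of Slc25a1 held 5, starting at -172, -96, -46, -41 and -17 from the transcript start. Slc13a4 also held 0, and of 2 alternative starts of Slc13a5 1 held 0 and the other 1 core, at 34 bases after the start. Among 32851 promoter windows of that length, 32.4% held at least 1 core and 0.463% held 5 or more, counting both strands. The windows of Slc25a1 and Slc13a3 were both 69.3% G or C, against a median of 52.7%, and these shares are not matched for that. These are matches of letters, and binding of the receptor was not measured.

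Slc13a2 was a low-abundance transcript that nearly disappeared from the counts. The gene (ENSMUSG00000001095) spans chr11:78397087-78422217 on the minus strand of GRCm38. In vehicle mice it was counted at 1.63, 1.65, 1.60, 2.04 and 2.63 CPM, from 23 to 52 reads per liver. It was 0 in 4 livers given 30 µg/kg and 0.0354 CPM in the other, which had 1 read. All 5 values at that dose were thus below every vehicle value.

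Up to 0.3 µg/kg the Slc13a2 values scattered around the vehicle range. In the 0.01 µg/kg group they were 2.95, 2.69, 6.42, 2.03 and 0.689 CPM, where the highest value was that of mouse L22 and the lowest that of L24. The 0.03 µg/kg group held 0.357, 1.80, 1.34, 1.14 and 2.09 CPM and the 0.1 µg/kg group 0.533, 2.82, 2.22, 1.30 and 0.417 CPM. Both groups reached below the vehicle range but overlapped it. At 0.3 µg/kg the values of 3.92, 1.17, 0.986, 2.02 and 1.62 CPM lay on both sides of it.

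From 1 µg/kg upward every liver was below every vehicle liver. The 5 values were 0.609, 0.954, 0.652, 1.03 and 0.796 CPM at 1 µg/kg and 0.219, 0.476, 0.315, 0.129 and 0.289 CPM at 3 µg/kg. At 10 µg/kg they were 0.227, 0.264, 0.317, 0.0435 and 0.105 CPM, overlapping those at 3 µg/kg. Of all detected genes, 2.0%, 3.36%, 6.12% and 9.57% lay wholly below the vehicle range at 1, 3, 10 and 30 µg/kg. The gene was chosen on these values, so nothing is read from the comparison.

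Group means of Slc13a2 fell from 1.91 ± 0.44 CPM in vehicle mice to 0.808 ± 0.183, 0.286 ± 0.129, 0.191 ± 0.113 and 0.00707 ± 0.0158 CPM at 1, 3, 10 and 30 µg/kg in that order (SD, 5 mice per group). Summed over mice and scaled for library size, the reads at 3 µg/kg (46 against 160 in vehicle mice) were 5.82-fold lower, with a 95% counting interval of 4.17 to 8.26. The 21 reads of the next dose gave 10.9-fold lower (6.87 to 18.04), and the 1 read of the highest dose gave 192-fold lower (33.9 to 7625). The last interval is wide because it rests on a single read, and all these intervals cover counting error only. In whole liver, fewer cells carrying a transcript and less transcript per cell cannot be told apart.

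The antisense gene Slc13a2os shares 632 of the 2412 exon bases of Slc13a2. It had 2 reads in all 45 livers. The sources used here do not say whether counting used the strand, so reads in the shared stretch cannot be assigned to one of them with certainty.

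**Figure D1:**
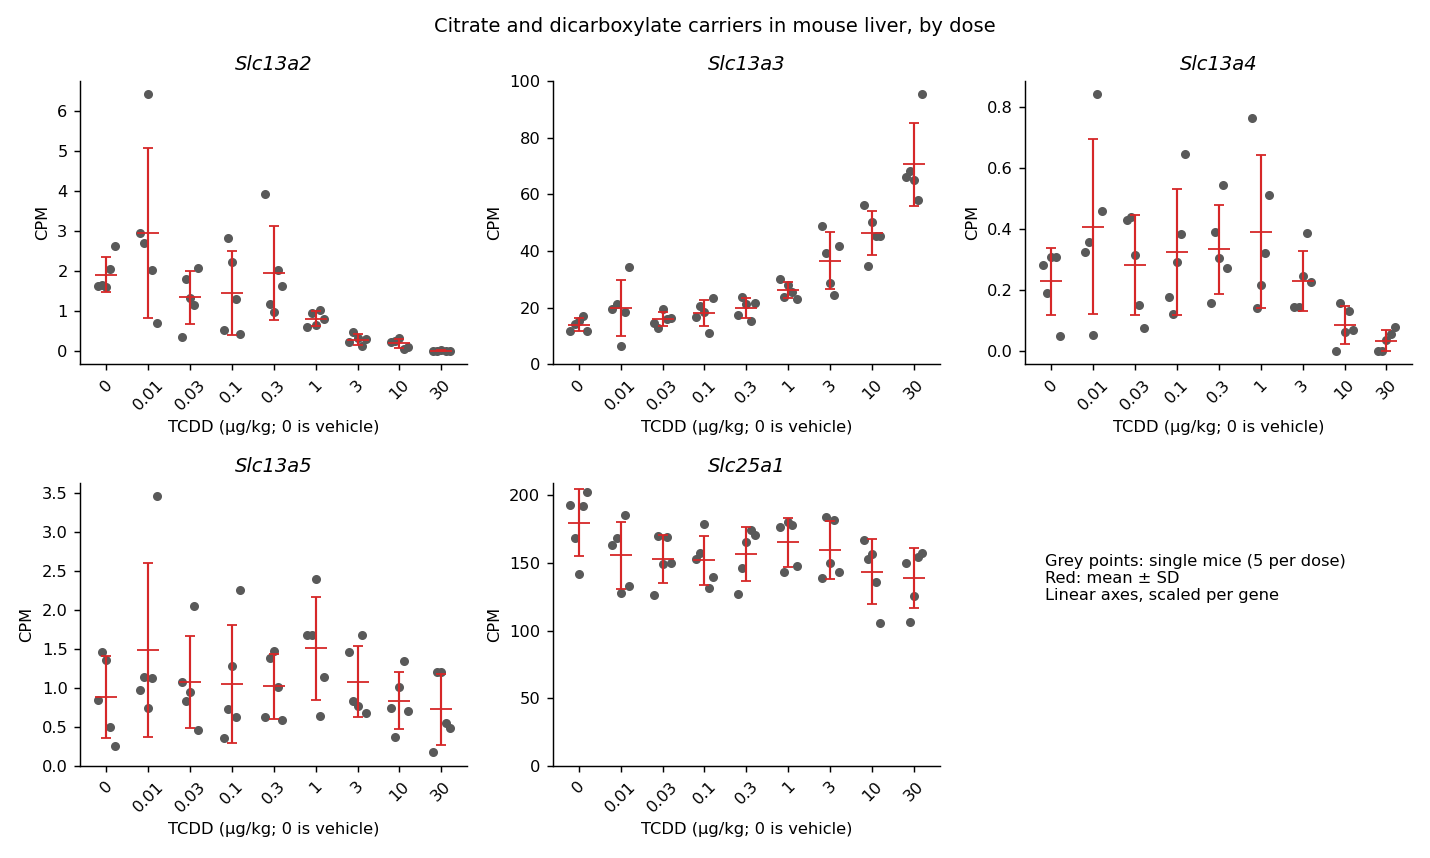
Level of each carrier in each of 45 livers, in CPM on linear axes scaled per gene, against the TCDD dose in µg/kg, with 0 for vehicle. Grey points are single mice (5 per dose) and red marks the mean ± SD. Slc13a2 lies below the vehicle values from 1 µg/kg, Slc13a3 above them from the same dose, and Slc25a1 between 106 and 203 CPM in every group shown.

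Slc13a3 moved the opposite way and rose with dose. The gene (ENSMUSG00000018459) spans chr2:165405028-165473230 on the minus strand. Vehicle livers held 11.7, 14.3, 15.3, 17.2 and 11.7 CPM, and livers at 30 µg/kg 66.1, 68.4, 65.0, 57.9 and 95.6 CPM. The lowest liver at 30 µg/kg was above the highest of any lower dose, and how many genes share that position was not counted. Means were 70.6 ± 14.5 and 14.04 ± 2.37 CPM (SD, 5 mice per group). The fitted rise was 2.33 on the log2 scale, or 5.02-fold (SE 0.24, adjusted p = 2.17e-10 by edgeR's quasi-likelihood fit, Benjamini-Hochberg over all genes).

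The increase of Slc13a3 was already present at 1 µg/kg. At that dose the livers held 30.2, 23.9, 28.1, 25.6 and 23.2 CPM, a mean of 26.2 ± 2.9 CPM (SD, n = 5), and all were above the vehicle range. The log2 fold change was 0.90 (SE 0.23, adjusted p = 0.0282, edgeR). This call was lost when any one of 8 mice was left out, the vehicle mice L2, L3, L4 and L8 and the 1 µg/kg mice L51, L53, L54 and L55, with log2 fold changes of 0.83 to 0.92 and adjusted p-values of 0.0504 to 0.106.

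At 3 µg/kg Slc13a3 stood at 48.9, 39.3, 28.6, 24.5 and 41.9 CPM and at 10 µg/kg at 56.3, 34.8, 50.3, 45.2 and 45.3 CPM. The log2 fold changes were 1.38 (SE 0.23, adjusted p = 5.65e-05) and 1.73 (SE 0.23, adjusted p = 4.06e-07, edgeR). No liver at either dose overlapped the vehicle range. Exact two-sided permutation tests of 5 mice against 5 gave p = 0.00794 at each of 1, 3, 10 and 30 µg/kg. This is the smallest p that the design allows. It follows from the groups not overlapping, so it is no further support. After adjustment over the 16 exact tests made on 4 carriers it was 0.0317. Exact tests were made at these doses only, and the adjusted value depends on that choice.

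Calls in the same fit were made for 1.76%, 7.54%, 15.9% and 29.6% of all genes at 1, 3, 10 and 30 µg/kg, and upward calls for 1.24%, 4.34%, 8.47% and 15.5%. A position wholly above the vehicle range was found in 2.74%, 4.6%, 8.1% and 10.3% of genes at these doses. Slc13a3 was therefore among a small share of genes at 1 µg/kg and among a large one at 30 µg/kg.

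Below 1 µg/kg Slc13a3 passed the test at no dose. The 0.01 µg/kg livers held 19.4, 21.2, 6.53, 18.3 and 34.4 CPM and the 0.03 µg/kg livers 14.7, 12.8, 19.5, 15.97 and 16.4 CPM. Values of 16.8, 20.6, 18.3, 11.2 and 23.3 CPM were found at 0.1 µg/kg and of 17.4, 23.8, 21.2, 15.2 and 21.8 CPM at 0.3 µg/kg. All 4 groups overlapped the vehicle mice, and the lowest and highest values at 0.01 µg/kg were those of L22 and L24. The log2 fold change at 0.3 µg/kg was 0.51 (SE 0.23, adjusted p = 0.436, edgeR). Of all genes, 0.0%, 0.0573%, 0.0229% and 0.464% were called at these 4 doses. Without L24 the mean at 0.01 µg/kg was 16.4 ± 6.7 CPM (SD, n = 4) in place of 19.97 ± 9.92 CPM (SD, n = 5).

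Between neighbouring doses the rises of Slc13a3 did not pass the adjustment over all genes. From 10 to 30 µg/kg the log2 difference was 0.60 (SE 0.22, 95% interval 0.17 to 1.04, unadjusted p = 0.00976, adjusted p = 0.329, edgeR). From 1 to 3 µg/kg it was 0.49 (SE 0.23, 95% interval 0.043 to 0.93, unadjusted p = 0.0374, adjusted p = 0.66, edgeR). Of 20 such steps tested for Slc13a3, Slc13a4, Slc13a5 and Slc25a1, 0 passed the adjusted threshold and 3 had an unadjusted p under 0.05. Of all genes, 0.0458%, 0.115%, 0.178%, 0.784% and 0.613% passed it at the 5 steps from 0.1 to 30 µg/kg. A sigmoid curve put the dose of half-maximal change of Slc13a3 at 12.6 µg/kg (8.91 to 17.8 with each mouse left out in turn). Its Hill coefficient was 0.5, the lowest value the fit allowed, so the slope is a bound and the range depends on it. The values had not flattened at the highest dose, so the upper end of the curve, and with it this dose, is extrapolated.

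**Figure D2:**
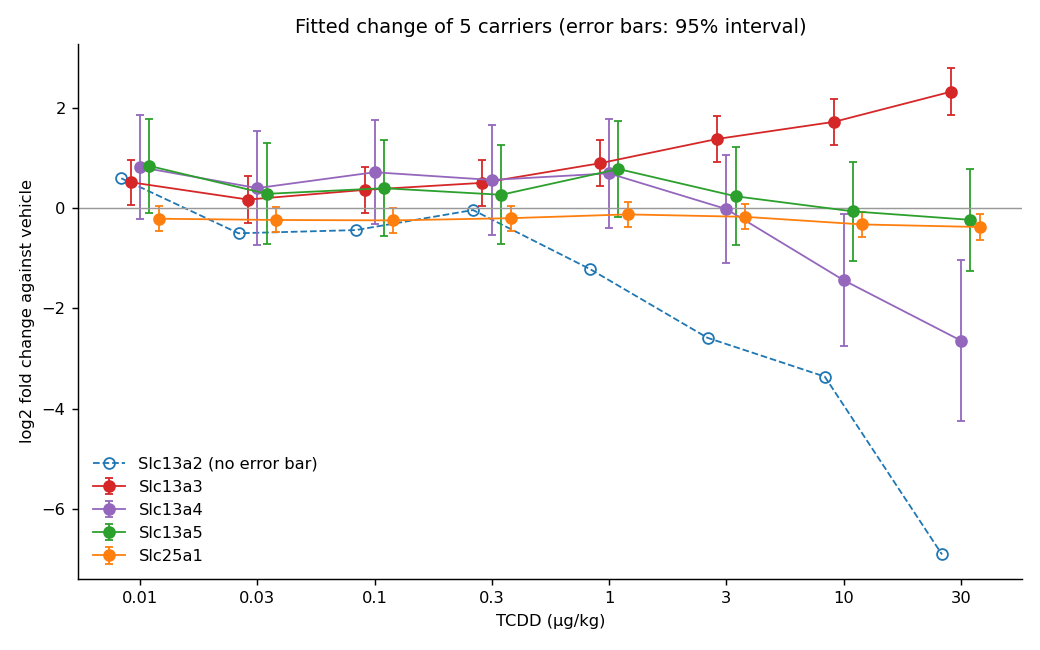
Fitted log2 fold change of each carrier against vehicle (vertical axis) at each of 8 TCDD doses in µg/kg (horizontal axis, evenly spaced). Filled points have 95% intervals and open points, for Slc13a2, have none because its dose response chose it. Slc13a3 climbs to 2.33 and Slc13a2 falls to -6.91 at 30 µg/kg, the latter on 1 read. The intervals of Slc13a5 include 0 at every dose.

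The opposite movements widened the gap in reads between the dicarboxylate carriers. Per exon base, and summed over the 5 mice of a group, Slc13a3 had 3.32 times the reads of Slc13a2 in vehicle mice (95% counting interval 2.81 to 3.94). With rising dose from 1 µg/kg the ratio was 13.9 (11.2 to 17.6), 50.9 (38.1 to 69.6) and 122 (79.5 to 197). The highest dose gave 3114 (559 to 123000), which again rests on 1 Slc13a2 read. Slc13a2 is in this ratio, so it is a description. The ratio uses all 2412 exon bases of Slc13a2, of which 632 are shared with Slc13a2os. If reads on the shared bases were left uncounted, the ratios are too high, and the counting intervals do not cover that.

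Single livers of 1 dose also differed in both genes. At 0.01 µg/kg L22 had the highest Slc13a2 of all 45 livers (6.42 CPM) and the lowest Slc13a3 (6.53 CPM). L24, which stood apart in its Cyp1a1 and macrophage markers, had the lowest Slc13a2 (0.689 CPM) and the highest Slc13a3 (34.4 CPM) of its group. It was also the deepest library of its group, with 47411128 reads on genes. L40, the deepest of all (56509899 reads), likewise had the lowest Slc13a2 (0.417 CPM) and highest Slc13a3 (23.3 CPM) at 0.1 µg/kg. Its summed macrophage markers, 223.9 CPM, were below the 245.6 CPM of another liver of that dose. L59 (47459314 reads) instead had the highest Slc13a2 at 3 µg/kg (0.476 CPM). At 0.1 µg/kg L37 and L38 were above the group mean in both genes. These livers were picked for their extremes. Over the 45 livers, with each dose mean subtracted, Pearson's r of the 2 genes was -0.393. It did not pass (adjusted p = 0.138, permutation within dose groups). The part of depth and of the macrophage markers in these levels was not tested.

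**Figure D3:**
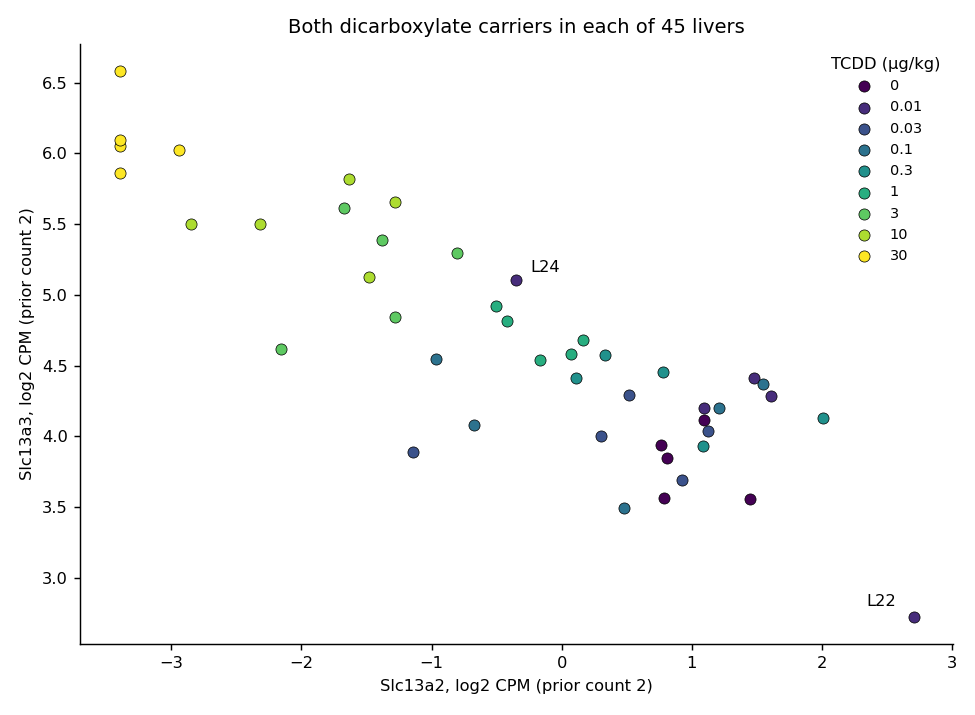
Slc13a2 (horizontal) against Slc13a3 (vertical) in each of 45 livers, both as log2 CPM with a prior count of 2, coloured by TCDD dose. Livers at 30 µg/kg sit at the top left and most vehicle and low-dose livers at the lower right, with L22 at the far lower right and L24 away from the others of its dose.

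Slc13a5, the hepatocyte citrate transporter, was measured at few reads and did not pass the test at any dose. The gene (ENSMUSG00000020805) spans chr11:72241989-72267222 on the minus strand. Vehicle livers held 0.849, 1.46, 1.36, 0.495 and 0.253 CPM and livers at 30 µg/kg 0.180, 1.202, 1.202, 0.557 and 0.481 CPM, so the groups overlapped almost wholly. The log2 fold change was -0.23 (SE 0.52, 95% interval -1.25 to 0.79, adjusted p = 0.782, edgeR). Vehicle mice alone spread over 0.883 ± 0.526 CPM (SD, n = 5), on 5 to 23 reads per liver, and changes inside that interval could not be told from none with this spread.

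The highest Slc13a5 value of the 45 livers, 3.46 CPM, was that of L24, against 0.749 to 1.13 CPM in the other mice of its group. With it the group mean at 0.01 µg/kg was 1.49 ± 1.12 CPM (SD, n = 5) and without it 0.995 ± 0.179 CPM (SD, n = 4). The antisense gene 1700051A21Rik shares 473 of the 4940 exon bases of Slc13a5 and had 3 reads in all livers.

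Slc13a4, a sulfate carrier of the same family, was the least abundant of the 5 and was called lower at 30 µg/kg. The gene (ENSMUSG00000029843) spans chr6:35267957-35308131 on the minus strand. Vehicle livers held 0.283, 0.191, 0.308, 0.309 and 0.0505 CPM, from 1 to 5 reads each. Values in the 30 µg/kg group were 0, 0, 0.0354, 0.0557 and 0.0801 CPM, from at most 1 read each, and the vehicle mouse L8 lay within their range. The log2 fold change was -2.64 (SE 0.82, adjusted p = 0.0121, edgeR), and the 3 reads against 18 gave a 7.19-fold lower ratio with a 95% counting interval of 2.10 to 38.1.

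The exact permutation test of Slc13a4 at 30 µg/kg gave a two-sided p of 0.0238, and 0.0762 after adjustment over the 16 tests. The 9 reads at 10 µg/kg gave a log2 fold change of -1.44 (SE 0.67, adjusted p = 0.145, edgeR). At 0.01 to 1 µg/kg the fitted values were above 0 and none passed the test. The sulfate carrier Slc13a1, the remaining family member, had 0 reads in all 45 livers.

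Slc25a1 was by far the most abundant of the 5 and was called lower at 30 µg/kg by a small margin. The gene (ENSMUSG00000003528) spans chr16:17925223-17928219 on the minus strand. In RPKM, which is CPM per kilobase of exon, it stood at 83.0 ± 11.4 in vehicle mice, against 2.69 ± 0.45 for Slc13a3, 0.792 ± 0.182 for Slc13a2, 0.179 ± 0.107 for Slc13a5 and 0.0504 ± 0.0244 for Slc13a4 (SD, n = 5 each). It was still the highest at 30 µg/kg, at 64.04 ± 10.23 RPKM against 13.5 ± 2.8 RPKM for Slc13a3.

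Vehicle livers held 192.9, 168.6, 141.8, 192.2 and 202.6 CPM of Slc25a1 and livers at 30 µg/kg 149.8, 105.9, 125.5, 154.7 and 157.0 CPM. The groups overlapped, with 2 of the 5 treated livers below the vehicle range. The log2 fold change was -0.37 (SE 0.13, adjusted p = 0.0226, edgeR), or 1.30-fold lower. The exact permutation test gave a two-sided p of 0.0397 and 0.106 after adjustment over 16 tests.

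Fitted values of Slc25a1 were below 0 at all 8 doses and did not fall steadily with dose. The group means of Slc25a1 were 155.4, 152.7, 151.9, 156.5, 165.0 and 159.5 CPM from 0.01 to 3 µg/kg in that order and 143.6 CPM at 10 µg/kg, all below the vehicle mean of 179.6 ± 24.6 CPM (SD, n = 5). The log2 fold change at 0.01 µg/kg was already -0.21 (SE 0.13, adjusted p = 0.589, edgeR), and none of the 7 doses below 30 µg/kg passed the test.

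The call of Slc25a1 did not hold in every setting. Without a scaling factor the log2 fold change was -0.17 (adjusted p = 0.316), a setting in which the median of all genes was 0.23 instead of 0.02. It was also lost when any of the vehicle mice L2, L7 and L8 or the 30 µg/kg mice L75 and L76 was left out (log2 fold changes -0.35 to -0.29, adjusted p-values 0.0517 to 0.097). The 10 µg/kg group gave -0.32 (SE 0.13, adjusted p = 0.0773), which passed without L4 (adjusted p = 0.0341) or L66 (0.0398).

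Of the 4 carriers open to testing, 3 were thus called at 30 µg/kg, Slc13a3 upward and Slc13a4 and Slc25a1 downward, when 15.5% of all genes were called higher and 14.1% lower. At 1, 3 and 10 µg/kg Slc13a3 was the only one of the 4 called.

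Genes that make and use the same metabolites were followed in a list of 46, of which 41 were detected, Slc22a6 among them by the reads of a single liver. The list was drawn up with earlier results of these data known, so its counts are set beside all genes as a description. In the 30 µg/kg group 3 were called higher, 19 lower and 19 were not called, with a median log2 fold change of -0.31 against 0.02 for all genes. At 1, 3 and 10 µg/kg 0, 0 and 3 were higher (Slc22a7, Suclg1 and the barely counted Slc22a6) and 3, 6 and 11 lower, when 0.515%, 3.2% and 7.47% of all genes were called lower. Without a scaling factor the list at 30 µg/kg split into 7 higher and 9 lower, and its median was -0.09 against 0.23 for all genes.

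Cytosolic enzymes that use exported citrate had the lowest median of the 4 groups of the list. Of 8, 6 were called lower at 30 µg/kg and 0 higher, with a median of -0.68, when 14.1% of all genes were called lower and 15.5% higher. Fasn, the fatty acid synthase, fell from 879.4 ± 467.5 CPM in vehicle mice (SD, n = 5) with a log2 fold change of -2.52 (SE 0.36, adjusted p = 4.21e-07). Acly, which splits citrate to acetyl-CoA, fell by 2.06 on the log2 scale (SE 0.29, adjusted p = 3.12e-07), and Acaca, which makes malonyl-CoA from it, by 1.35 (SE 0.17, adjusted p = 3.78e-08, all edgeR). These 3 were also the 3 list genes called at 1 µg/kg, with log2 fold changes of -1.64, -1.20 and -0.84, and they passed at 30 µg/kg without a scaling factor.

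The median log2 fold change of the cytosolic group was below 0 at every dose. It was -0.49, -0.51, -0.34 and -0.55 at 0.01, 0.03, 0.1 and 0.3 µg/kg and -0.75, -0.64 and -0.65 at 1, 3 and 10 µg/kg, with 0 of 8 genes called at the 4 lowest doses. At 0.01 µg/kg Fasn had a log2 fold change of -0.86 (adjusted p = 0.391), Me1 of -0.83 (0.239) and Acacb, the second acetyl-CoA carboxylase, of -0.88 (0.282, edgeR). All doses were set against the same 5 vehicle mice, which for Fasn spread widely as given above.

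Me1, the malic enzyme that supplies NADPH, was called lower at 30 µg/kg with a log2 fold change of -0.79 (SE 0.24, adjusted p = 0.0109), no larger than the -0.83 of the lowest dose and with values from -0.78 to -0.50 between. Aco1 and Idh1, which carry citrate on to 2-oxoglutarate in the cytosol, fell at 30 µg/kg by 0.41 and 0.36 (adjusted p = 0.00105 and 0.00183, edgeR). Me1, Aco1 and Idh1 did not pass without a scaling factor. Acacb had a log2 fold change of -0.57 at 30 µg/kg (adjusted p = 0.123), smaller than at the lowest dose, and Mdh1 of 0.04 (adjusted p = 0.794).

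Within the Krebs cycle, 6 of 18 genes were called lower at 30 µg/kg, 1 higher and 11 neither, when 14.1% of all genes were called lower and 15.5% higher. Without a scaling factor the split was 3 lower and 4 higher, so no direction is read for the group. Both alternative beta subunits of succinate-CoA ligase fell, Sucla2 by 0.64 (SE 0.09, adjusted p = 3.45e-07) and Suclg2 by 0.57 (SE 0.09, adjusted p = 3.55e-06), whereas Suclg1, the alpha subunit they share, rose by 0.31 on the log2 scale (SE 0.08, adjusted p = 0.00489, edgeR). Of the NAD-dependent isocitrate dehydrogenase, Idh3a fell by 0.63 (adjusted p = 0.0235) and Idh3g by 0.48 (adjusted p = 5.17e-06). The subunits Sdhd and Sdha of succinate dehydrogenase, which oxidises succinate, fell by 0.40 and 0.27 (adjusted p = 0.000739 and 0.0203). Without a scaling factor the genes called lower were Idh3g, Sucla2 and Suclg2 and those called higher Dlst, Idh2, Ogdh and Suclg1.

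Of 8 other mitochondrial carboxylate carriers detected, 4 were called lower and 1 higher at 30 µg/kg, when 14.1% of all genes were called lower and 15.5% higher. Mpc2 and Mpc1, the subunits of the mitochondrial pyruvate carrier, fell by 0.71 (SE 0.10, adjusted p = 3.05e-07) and 0.54 (SE 0.14, adjusted p = 0.00192). The oxoglutarate carrier Slc25a11 and the aspartate-glutamate carrier Slc25a13 each fell by 0.31 (adjusted p = 0.0416 and 0.0426). Slc25a12, the other aspartate-glutamate carrier, rose by 0.42 (SE 0.14, adjusted p = 0.0181, edgeR). Without a scaling factor only Mpc2 was called lower among the 8, and Slc25a12 was still called higher.

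Of 7 other plasma membrane transporters and receptors of these anions, 3 were called lower and 1 higher at 30 µg/kg, beside 14.1% and 15.5% of all genes. Sucnr1, the receptor that senses extracellular succinate, fell by 1.84 (SE 0.26, adjusted p = 5.91e-07, edgeR). Ankh, a membrane protein linked to export of citrate, fell by 0.50 (adjusted p = 0.000706) and Slc26a1, a sulfate and oxalate exchanger, by 0.35 (adjusted p = 0.0295). Slc22a7, an organic anion transporter, rose by 1.61 (SE 0.30, adjusted p = 5.64e-05). Slc22a6 had 17 reads in all 45 livers and reached the read minimum only through 1 liver at 10 µg/kg with 5 reads, so its call at that dose is not read as a change.

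**Figure D4:**
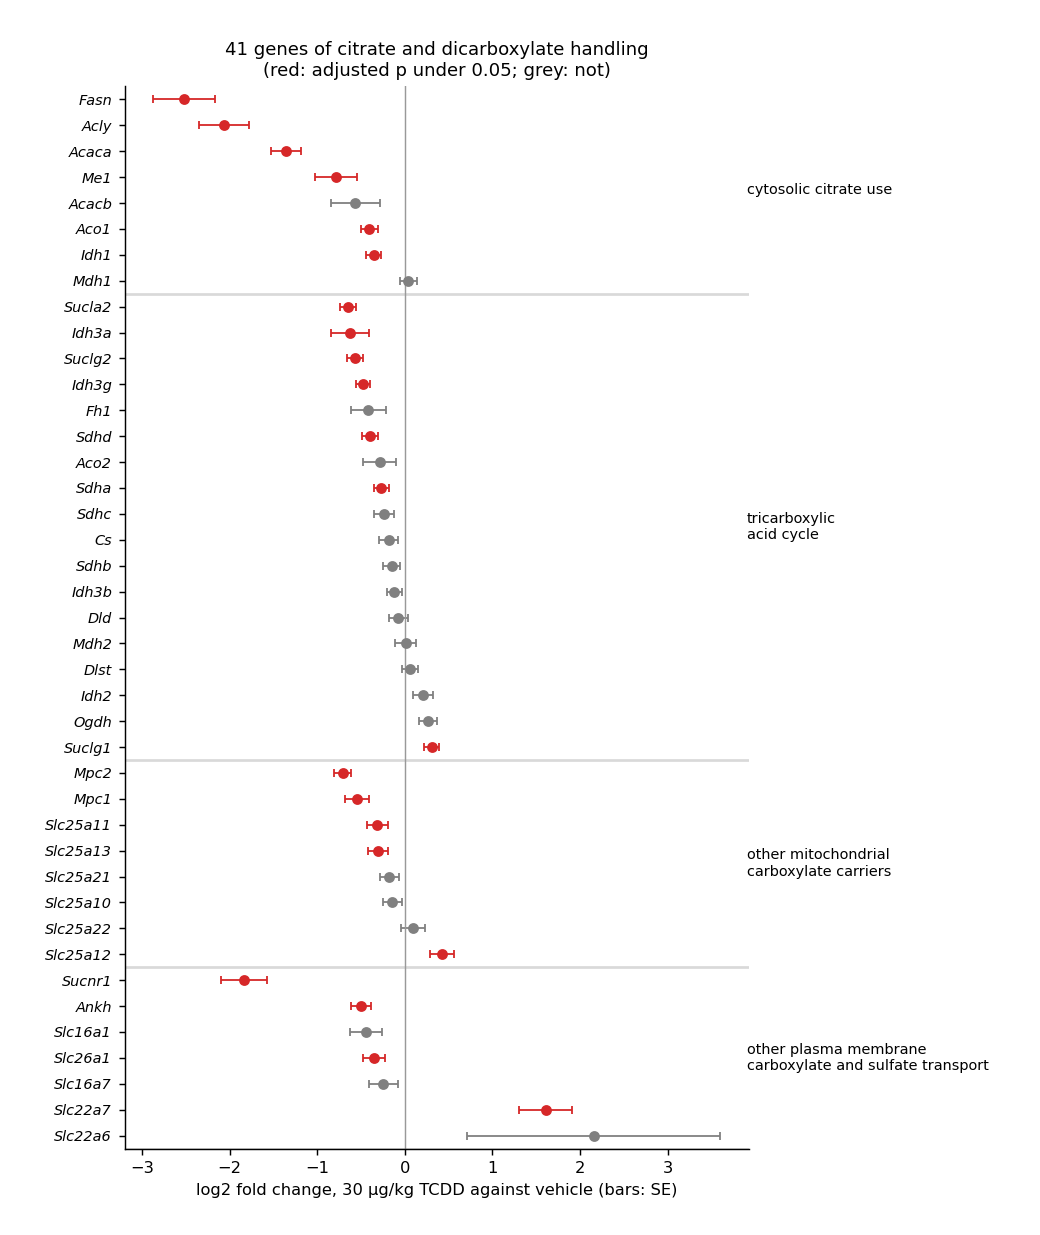
Log2 fold change at 30 µg/kg against vehicle (horizontal axis, bars SE) of the 41 detected genes of citrate and dicarboxylate handling, in 4 groups. Red points passed an adjusted p of 0.05 and grey points did not. Fasn, Acly and Acaca lie farthest left in the first group, Sucnr1 lies far left and Slc22a7 right in the last.

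Some markers of other liver cells moved with dose as well, and their part in these results was not tested. Of 5 stellate cell and fibroblast markers 2 were called higher at 30 µg/kg (Reln and Col1a1), 3 of 5 endothelial markers (Pecam1, Kdr and Cdh5), 3 of 5 leukocyte markers (Ptprc, S100a8 and Itgax) and 1 of 5 macrophage markers (Cd68). None of these lists had a gene called lower, and 0 of 5 biliary markers were called. Of all genes, 15.5% were called higher at that dose and 14.1% lower, so the 1 macrophage marker is near that share. The summed stellate cell and fibroblast markers ran from 209.6 to 331.3 CPM at 30 µg/kg and from 90.1 to 110.9 CPM in vehicle mice. Those of the leukocytes ran from 15.3 to 32.9 against 7.06 to 13.9 CPM, those of the endothelium from 117.2 to 195.6 against 101.6 to 133.1 CPM and those of the macrophages from 89.5 to 288.1 against 115.9 to 178.1 CPM.

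Markers of the tissues where these carriers are best known, and of pancreas, were mostly scarce. Of the 5 intestinal markers, Cdx2 had 1 read in all livers, Vil1 and Muc2 were under 0.2 CPM, Lgals4 was at 18.6 CPM in vehicle mice, and Fabp2, which hepatocytes also express, was called higher. Of the 5 pancreas acinar markers, Cpa1 and Pnlip were at 0 CPM in vehicle and 30 µg/kg mice, and Cela1 was called lower, from 17.5 to 4.73 CPM. Ctrb1 and Cel went from 0 to 0.094 and 0.0161 CPM and were not called. Over all doses a single liver held at most 32 reads of Ctrb1, 24 of Pnlip, 14 of Cel and 6 of Cpa1. Slc13a2 is known from kidney and intestine, and the kidney markers were near 0 as given above.

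Over the 45 livers, the genes whose log2 CPM followed Slc13a2 most closely were Car14 (Pearson r 0.907), Car3 (0.895), Dact2 (0.891), Mmd2 (0.889) and Dcaf11 (0.887), out of 12412 genes with a mean of at least 1 CPM. Car14 and Car3 are carbonic anhydrases, and Dcaf11 is a substrate receptor of a ubiquitin ligase. Car14 went from 45.8 ± 17.1 CPM in vehicle mice to 4.997 ± 0.986 CPM at 30 µg/kg and Car3 from 2086 ± 247 to 240.0 ± 74.6 CPM (SD, n = 5 each). The livers share the dose groups, so this likeness mostly orders genes by their response to dose. With Spearman's rho 3 of these 5 genes were again among the top 5, and with a prior count of 0.5 in place of 2, 2 were.

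After each dose group's mean was subtracted, a different set of genes came first for Slc13a2. These were Kynu (r 0.693), Lap3 (0.679), Cth (0.643), Suox (0.638) and Ftcd (0.635) over the 45 livers. Kynu degrades kynurenine from tryptophan, Cth makes cysteine from cystathionine, Suox oxidises sulfite and Ftcd acts in histidine breakdown. Their log2 fold changes at 30 µg/kg were -0.58 for Kynu, -0.98 for Suox, -0.03 for Lap3, 0.20 for Cth and -0.03 for Ftcd, against -6.91 for Slc13a2.

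For Slc13a3 the closest genes over the 45 livers were Serpinb6a (r 0.911), Entpd2 (0.910) and Man2b1 (0.907), a protease inhibitor, an ectonucleotidase and a lysosomal mannosidase. Serpinb6a rose from 12.7 ± 1.7 to 213.7 ± 11.9 CPM and Entpd2 from 1.21 ± 0.13 to 20.5 ± 3.2 CPM (SD, n = 5 each) between vehicle and 30 µg/kg. For Slc25a1 they were Acat2 (0.754), Tm7sf2 (0.748) and Pex7 (0.741). Acat2 and Tm7sf2 act in sterol synthesis and Pex7 in import into peroxisomes. For Slc13a5 they were Plscr1 (0.668), Apobec1 (0.636) and Ctsc (0.624), and Slc13a4, with a mean under 1 CPM, was not ranked.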

How the data were processed

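Total liver RNA was sequenced as single reads of 50 bases. Per the paper and the labels, the authors aligned them to GRCm38 with Bowtie and TopHat 1.4.1, used SAMtools 0.1.19 and FastQC 0.11.2, and counted uniquely aligned reads on Ensembl genes with HTSeq 0.6.1. The deposited values are raw counts per gene, without normalization, in 1 file per mouse. Strand use in counting is not given in the sources used here, and sequencing pools are not in the labels. Unassigned reads (outside genes or ambiguous) were 10.7% to 18.4% of unique reads per mouse and were left out. No pair of libraries was identical.

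All 45 mice entered 1 edgeR 4.0.16 fit (R 4.3.3) of the counts, with TMM scaling, 1 coefficient per group, genes with over 4 reads in any mouse, the quasi-likelihood test and Benjamini-Hochberg adjustment within each contrast. The model of the study (DESeq transformation, then a semi-parametric and empirical Bayes procedure) was not repeated. Genes with adjusted p under 0.05 were called. Levels are TMM-scaled CPM, and RPKM divides by exon length from GENCODE on GRCm38, bases shared with antisense genes included. Exact permutation tests, curves and likeness used log2 CPM (prior count 2). These and the figures were made with matplotlib 3.10.9, pandas 2.3.3, scipy 1.17.1 and numpy 2.4.6 under Python 3.11.15. Scripts were tested on simulated data. Alternatives were DESeq2's size factors, no scaling factor, no or stricter filters, DESeq2 1.42.0, 2 groups only, and each mouse left out.

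The members and lists were chosen with earlier results of these data known. Named genes are the members, list genes called at 30 µg/kg with a fold change of at least 1.5 or behind a count of 5 or fewer, markers a result turns on and the 5 or 3 genes most like a member. Aco1, Idh1, Idh3g, Sdhd, Sdha, Dlst, Idh2, Ogdh, Acacb and Mdh1 fall outside that rule and were named after their values were seen.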

Additional observations from a re-analysis of the deposited data

Results flagged for a closer look

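A value far from the other 4 of its group, by Dixon's ratio of gap to range, was found in 3 of the 45 sets of a carrier and a dose. For normally distributed values chance alone marks about 1 set in 20, a rate that need not hold for carriers with few reads. Slc13a5 stood at 3.46 CPM (166 reads) in mouse L24 at 0.01 µg/kg, against 0.749 to 1.13 CPM in the others of the group. Slc13a3 stood at 95.6 CPM (1193 reads) in mouse L80 at 30 µg/kg, against 57.9 to 68.4 CPM. Slc13a2 stood at 0.0354 CPM in mouse L76 at 30 µg/kg, which is 1 read against 0 in the other 4. With 4 values of 0 the ratio is 1 whatever the remaining value, so nothing is read from this mark.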

How the results depend on the processing

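At 30 µg/kg, Slc13a3 (log2 fold change 2.19 to 2.54) and Slc13a4 (-2.98 to -2.33) kept their direction and side of the threshold in each alternative run. Slc13a4 could not be tested under the stricter filter, which removed it. Slc13a2 ran from -8.33 to -6.67 with each mouse left out and from -7.04 to -6.75 otherwise. All of these rest on at most 1 read at 30 µg/kg. The -8.33 was found without L76, which held that read, so no read was left at that dose. The narrow range is therefore no measure of how well the fall is known. Slc25a1 was -0.17 (adjusted p = 0.316) without a scaling factor and -0.45 to -0.29 with each mouse left out, 5 of which ended its call. Slc13a5 ran from -0.56 to 0.042 with each mouse left out, turning to 0.042 without L3 and 0.032 without L74, and passed in none of these. Without a scaling factor the list genes called became 7 higher and 9 lower, and all genes 4993 higher and 1222 lower, in place of 2700 and 2467. All genes called ran from 4421 to 5513 with each mouse left out, and the list from 2 to 4 higher and 14 to 20 lower. Without L24 the list gave 3 and 19 and all genes 5334. The cause was not tested.

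The dose of half-maximal change was fixed poorly for Slc13a2 (5.01 to 44.7 µg/kg with a mouse left out, and at the limit of 100 µg/kg with a prior count of 0.5) and not at all for Slc25a1 (0.00316 to 8.91 µg/kg). For Slc13a4 it was 7.08 µg/kg (5.62 to 8.91), on few reads. No paired analysis was possible because the labels give mice no numbers that groups share. Median reads per liver were 22 for Slc13a2, 5 for Slc13a4 and 20 for Slc13a5, so counting error adds to the spread between mice for these.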

Other observations

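Deviations from the dose group means were compared between the 5 carriers over the 45 livers, 10 pairs chosen after the levels had been seen, with permutation within dose groups. Slc13a2 and Slc13a5 deviated in opposite directions, with Pearson's r -0.458 (permutation p = 0.00468, adjusted p = 0.0234) and Spearman's rho -0.469 (p = 0.00294, adjusted p = 0.0294). Without L24 and L27, whose Slc13a2 deviations lay farthest from the median, r was -0.40. L40, which deviated by -1.28 in Slc13a2 and 1.27 in Slc13a5 on the log2 scale, stayed in. Slc13a2 and Slc13a4 gave r -0.515 (permutation p = 0.00377, adjusted p = 0.0234) and rho -0.417 (p = 0.0121, adjusted p = 0.0607), with r -0.504 without L24 and L27, but Slc13a4 had a median of 5 reads. Slc13a2 and Slc13a3 gave r -0.393 (permutation p = 0.0666, adjusted p = 0.138) and rho -0.233 (p = 0.167, adjusted p = 0.328), with r -0.318 without those 2 livers, and did not pass. The counts behind these pairs are low, library depth differs between the livers, and the part of depth was not tested.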
